A study of Gallus gallus with 6 samples.

Results

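The genes of the cytosolic ribosomal proteins were examined in the jejunal mucosa, the inner surface layer of the small intestine's mid-section, of breeder hens after acute heat. Members were all genes of the expression table whose symbol was RPL or RPS followed by a digit, together with RPLP0, RPLP1, RPLP2 and RPSA, leaving out the RPS6K kinases and RPS19BP1. The rule used names only and found 73 of the 16317 genes in the table. Of these, 44 encode proteins of the large ribosomal subunit and 29 encode proteins of the small subunit. The heat group was SUT breeder hens aged 28 weeks that were held at 36 °C for 6 h, and the control group was hens of the same breed and age kept at 23 °C. The study kept 50 hens, 25 in each group, and took mucosa from 12 hens of each group. RNA of 4 hens was mixed into each pool, so that 3 heat pools and 3 control pools were sequenced, 1 library each. Replicates are thus pools made from different hens, and p-values measure the spread between pools and not between single birds.

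A ribosome is built from a small subunit, which reads the messenger RNA, and a large subunit, which joins amino acids. Each ribosomal protein is needed in the same number as ribosomal RNA, apart from the P-stalk proteins, and their genes are transcribed strongly in tissues that renew fast, such as the intestinal lining. Their messenger RNAs begin with a terminal oligopyrimidine (TOP) tract, through which the kinase mTOR and the RNA-binding protein LARP1 set how much of the RNA is translated. Control of these genes under stress in vertebrate cells is thus known to act in large part on translation, which messenger RNA counts do not record.

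The summed estimated counts were 11513427, 12775927 and 12947832 in heat pools 1, 2 and 3, against 13805395, 13542604 and 13633493 in control pools 1, 2 and 3. Of the 13060 genes with enough counts to be tested, 3 passed an adjusted p of 0.05 in edgeR, a count that was 0 on leaving out heat pool 1 or a control pool, 3 on leaving out heat pool 2 and 7 on leaving out heat pool 3. All 12 enterocyte markers looked for were measured, and the abundant ones included the fatty acid binding proteins FABP1 and FABP2 and the apolipoprotein APOA1, so the libraries carried the messenger RNAs of the labelled tissue. Heat pool 2 stood apart in its heat shock genes. The small heat shock protein HSPB9 was at 26.2, 2259 and 37.5 CPM in heat pools 1, 2 and 3 and at 3.16, 1.58 and 6.28 CPM in control pools 1, 2 and 3. CPM are counts relative to the library size after TMM, a scaling that assumes most genes do not differ. HSPA8, the constitutive HSP70 chaperone, was at 2317, 6440 and 2863 CPM in heat pools 1, 2 and 3 and at 1779, 1786 and 1782 CPM in control pools 1, 2 and 3. Counts of lists are given below also without heat pool 2.

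By FPKM, ribosomal protein genes were among the most abundant messenger RNAs of the mucosa in both groups. In control pools, 30 of the 50 genes and 57 of the 100 genes with the highest FPKM (fragments scaled to gene length and library size) were members. The median member stood at 2929 FPKM in control pools, and 68 of the 73 members were above 1000 FPKM. RPL37A, a zinc-binding protein of the large subunit, had the highest mean FPKM of all members. It was at 10419, 10947 and 7767 FPKM in heat pools 1, 2 and 3, against 10261, 8531 and 11633 FPKM in control pools 1, 2 and 3. Next in control pools came RPL27, at 7650 ± 862 FPKM in heat pools and 7432 ± 419 FPKM in control pools (SD, n = 3 each), and RPS12, at 7463 ± 1120 FPKM in heat pools and 7121 ± 290 FPKM in control pools. RPL36A averaged 6023 ± 751 FPKM in heat pools and 6078 ± 237 FPKM in control pools, and RPS15A averaged 6118 ± 824 FPKM in heat pools and 5991 ± 431 FPKM in control pools. The ranges of RPL27 and RPS12 overlapped, as did those of RPL36A and RPS15A. Pool by pool, RPL27 was above RPS12 in control pools 1, 2 and 3 and in heat pools 1 and 3, and below it in heat pool 2. RPL36A was above RPS15A in control pools 2 and 3 and below it in control pool 1 and every heat pool.

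The low end of the range was held by RPL29 and by 4 genes named as second copies of another member. RPL3L, known in mammals as the heart and skeletal muscle form of RPL3, was at 0.29, 0.60 and 0 FPKM in heat pools 1, 2 and 3 and at 0.51, 0.22 and 0.24 FPKM in control pools 1, 2 and 3, and did not have enough counts to be tested. RPL7L1, a relative of RPL7 that takes part in large subunit assembly in mammals, averaged 147 ± 21.3 FPKM in heat pools and 154 ± 21.3 FPKM in control pools. RPL29 averaged 566 ± 54.4 FPKM in heat pools and 521 ± 34.9 FPKM in control pools. RPL22L1 averaged 564 ± 72.2 FPKM in heat pools and 594 ± 72.2 FPKM in control pools, and RPS27L averaged 775 ± 117 FPKM in heat pools and 881 ± 124 FPKM in control pools. The gene lengths implied by the authors' counts and FPKM were short for members, with a median of 258 bp and a range of 63 to 1170 bp among the tested ones, against a median of 2556 bp for all tested genes. An FPKM order among genes this short depends on those lengths, as do the counts of members among the genes with the highest FPKM. RPL37A, first by FPKM, had an implied length of 99 bp and averaged 992 CPM in control pools. RPL4, with 1086 bp, averaged 2187 CPM there.

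**Figure D1:**
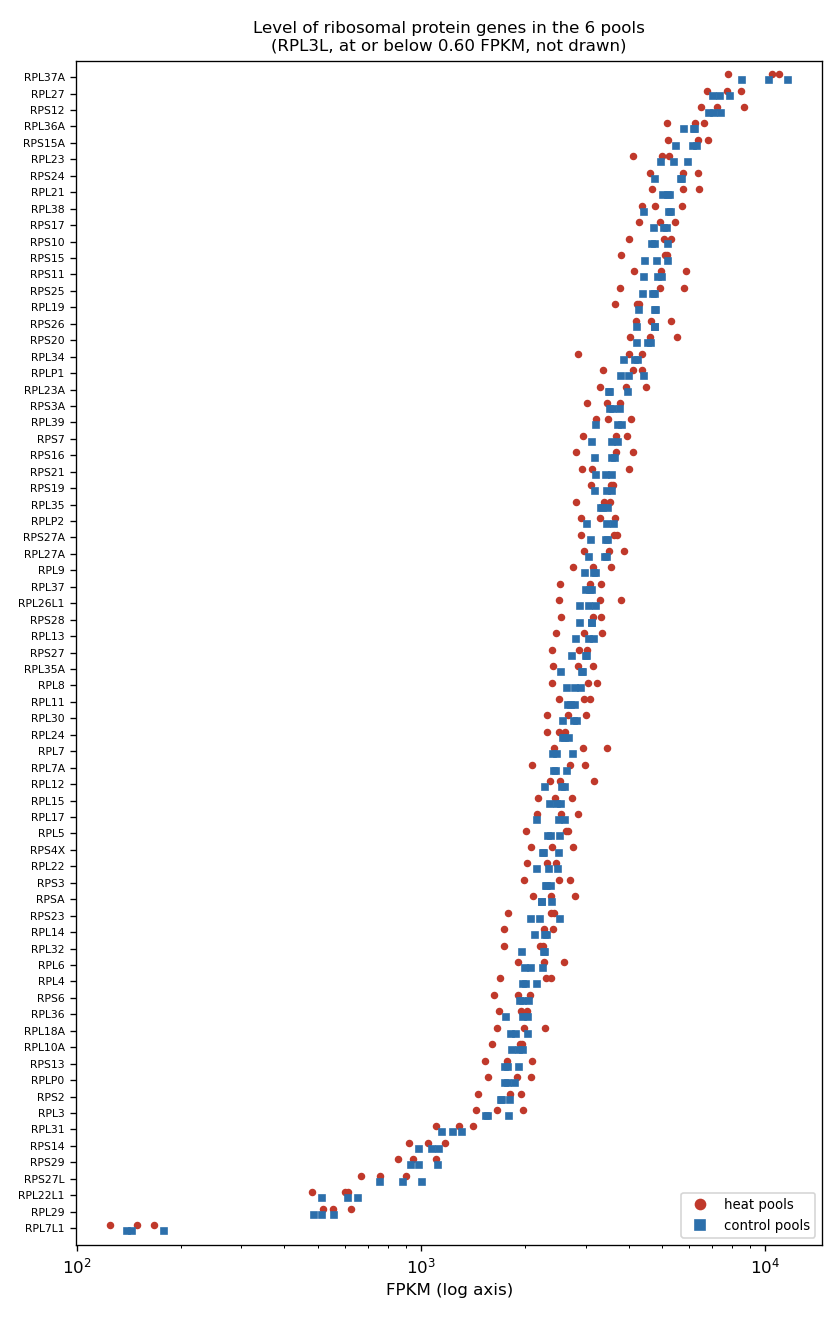
FPKM (log axis) of 71 ribosomal protein genes, 1 row a gene, ordered by the mean of the control pools; circles are the 3 heat pools and squares the 3 control pools. RPL37A leads at about 10142 FPKM in control pools, RPL7L1 is lowest at 154 FPKM, and the circles and squares of each gene overlap.

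As a share of each library, the 73 members took 6.70%, 7.36% and 5.70% of counts in heat pools 1, 2 and 3, against 6.84%, 6.14% and 6.57% in control pools 1, 2 and 3. The heat pools held both the highest and the lowest share, and the control pools lay inside their range. The mean was 6.58% ± 0.84 in heat pools and 6.52% ± 0.35 in control pools (SD, n = 3 each), a difference of 0.07 percentage points. Without heat pool 2 the difference was -0.32 percentage points, and without heat pool 3 it was 0.51 percentage points. Leaving out control pool 1 gave 0.23 and leaving out control pool 2 gave -0.12 percentage points. By summed FPKM, which gives short genes more weight, members made up 26.6%, 29.3% and 22.3% in heat pools 1, 2 and 3, against 25.5%, 24.0% and 25.5% in control pools 1, 2 and 3. In tissue, fewer cells of a type that is rich in these RNAs and less RNA in each cell cannot be told apart.

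**Figure D2:**
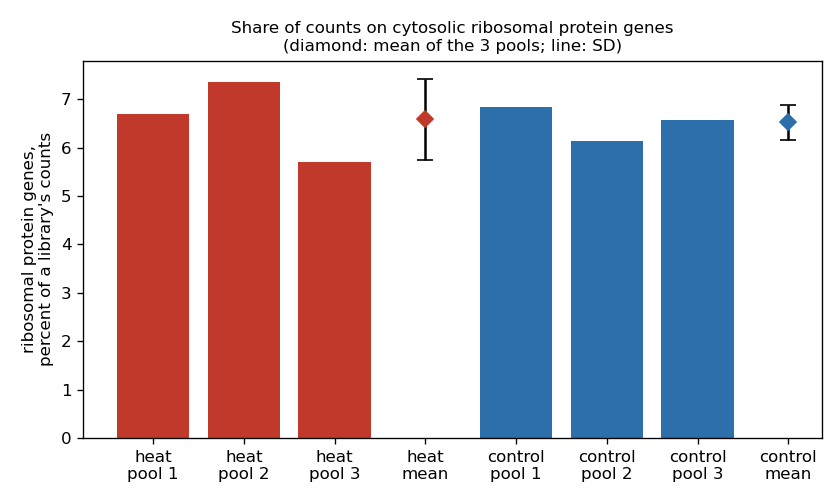
Percent of a library's counts on the 73 ribosomal protein genes in each heat pool and each control pool (bars, from 0), with the mean and SD of each group (diamond and line). The heat pools span 5.70% to 7.36% and enclose the control pools, which span 6.14% to 6.84%.

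No ribosomal protein gene passed the test between heat and control. Of 72 tested members, 0 had an adjusted p under 0.05 in edgeR's quasi-likelihood test, where 0.023% of all tested genes did. At an unadjusted p under 0.05 the count was again 0 of 72, where 17.9% of all tested genes passed, and DESeq2 called 0 of 72 with 4.94% of all tested genes called (2.24% lower and 2.7% higher in heat pools). The test limma-trend on log2(FPKM + 1) called 0 of 72, with 0.0153% of all tested genes called. The smallest p among members was 0.147, with an edgeR adjusted p of 0.435. In no member did all heat pools lie above or all below the control pools, while 24.5% of tested genes showed such a separation. A group of 2 pools separates more often: with heat pools 1, 2 and 3 left out in turn such members numbered 3, 4 and 13 (4.17%, 5.56% and 18.1%), where 36.4%, 30.8% and 41.8% of all tested genes separated. With control pools 1, 2 and 3 left out in turn they numbered 7, 2 and 2 (9.72%, 2.78% and 2.78%), where 32.1%, 33.4% and 32.9% of all tested genes separated. The share of members was below that of all tested genes each time. These counts are not independent of each other, since the leave-outs share most pools and the members moved together (below).

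The fitted changes of members were small. Their median log2 fold change, heat over control, was 0.06, with a range of -0.13 to 0.26, and the median of all tested genes was 0.00. The fit was positive for 58 members and negative for 14. Large subunit genes had a median of 0.06 (34 positive, 9 negative) and small subunit genes had a median of 0.06 (24 positive, 5 negative), the same to 2 decimals. Standard errors lay between 0.12 and 0.18 on the log2 scale. The 95% intervals of all 72 members stayed within 1 log2 unit of 0, a 2-fold change, and 66 stayed within 0.5. The widest bounds reached -0.53 (RPS27L) and 0.64 (RPL7). Under TMM scaling, this fit therefore bounds the heat effect on a member's RNA relative to other genes, without showing that it is 0. The bounds hold for this fit only. With a trend on gene length removed (below), the median was 0.21.

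**Figure D3:**
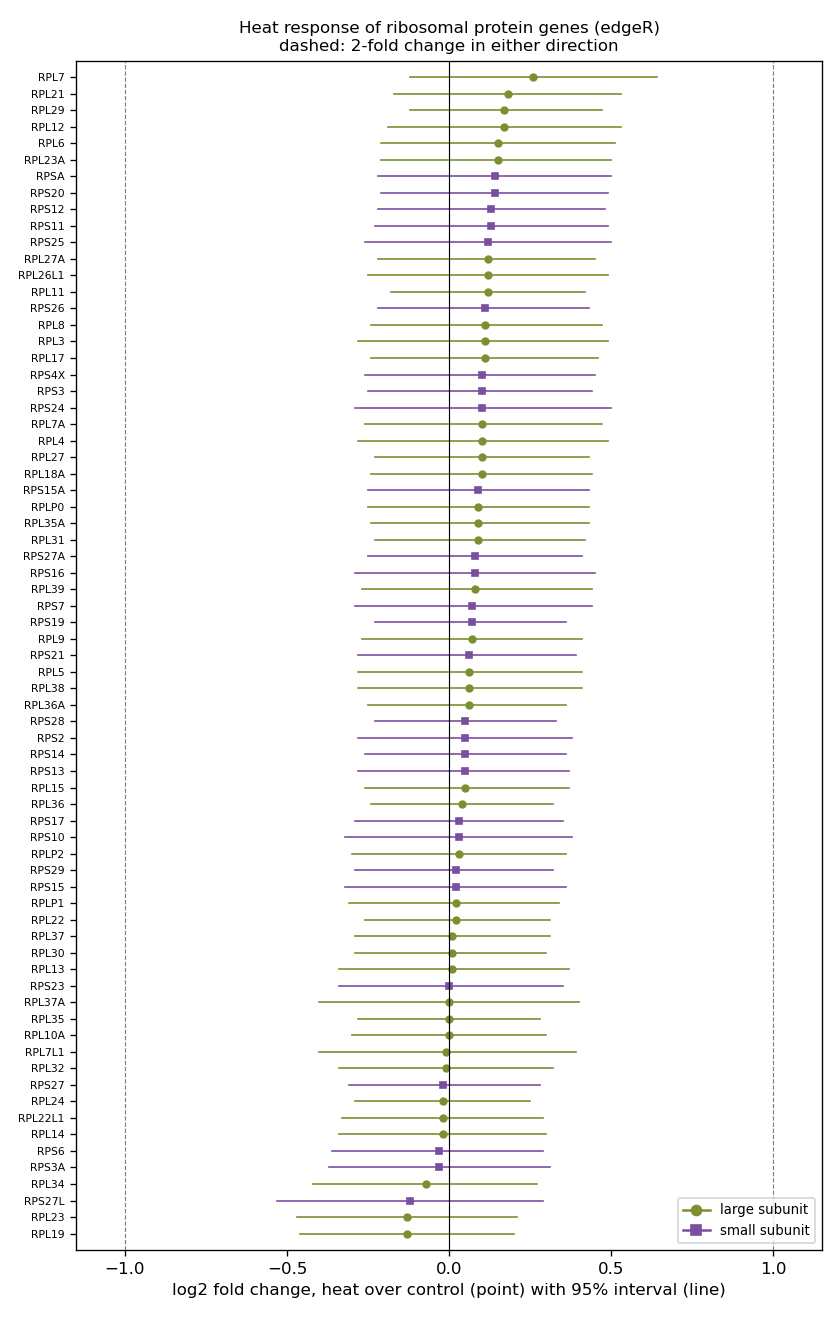
Log2 fold change of heat over control (point) with its 95% interval (line) for 71 ribosomal protein genes, large subunit as circles and small subunit as squares. Points run from -0.13 to 0.26, every interval holds 0, and no interval reaches the dashed lines at a 2-fold change.

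RPL7, a protein of the central protuberance of the large subunit near 5S ribosomal RNA, had the largest fitted change. It was at 1492, 1826 and 1365 CPM in heat pools 1, 2 and 3 and at 1423, 1239 and 1235 CPM in control pools 1, 2 and 3. Heat pool 3 lay below control pool 1, so the groups overlapped. The log2 fold change was 0.26 (SE 0.16, 95% interval -0.12 to 0.64, edgeR adjusted p 0.435). RPL21, RPL29, RPL12, RPL6 and RPL23A came next, with log2 fold changes of 0.18, 0.17, 0.17, 0.15 and 0.15. Heat pool 2 had the highest value of all pools for each of these.

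At the other end stood RPL23 and RPL19. RPL23, which can bind the p53 regulator MDM2 in mammalian cells, was at 848, 931 and 793 CPM in heat pools 1, 2 and 3 and at 1047, 835 and 932 CPM in control pools 1, 2 and 3. RPL19, which reaches across to the small subunit in a bridge, was at 1568, 1661 and 1514 CPM in heat pools 1, 2 and 3 and at 1830, 1573 and 1786 CPM in control pools 1, 2 and 3. In both genes control pool 2 lay among the heat pools. Their log2 fold changes were -0.13 with SE 0.15 (RPL23) and -0.13 with SE 0.14 (RPL19). RPL34 was at -0.07 (SE 0.15).

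The P-stalk proteins, which recruit the elongation factors to the large subunit, were measured at similar levels in both groups. RPLP0, the base of the stalk, was at 1396, 1601 and 1271 CPM in heat pools 1, 2 and 3 and at 1406, 1280 and 1322 CPM in control pools 1, 2 and 3. Its log2 fold change was 0.09 (SE 0.15, 95% interval -0.25 to 0.43). RPLP1 averaged 615 ± 53.3 CPM in heat pools and 608 ± 64.3 CPM in control pools, and RPLP2 averaged 537 ± 46.2 CPM in heat pools and 527 ± 62.7 CPM in control pools (SD, n = 3 each). For both, the group means differed by less than the SD of either group.

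RPL5 and RPL11 travel with 5S ribosomal RNA and, in mammalian cells, hold MDM2 when ribosome assembly is disturbed, which stabilises p53. RPL5 was at 1635, 1735 and 1387 CPM in heat pools 1, 2 and 3 and at 1606, 1442 and 1501 CPM in control pools 1, 2 and 3. RPL11 was at 828, 902 and 788 CPM in heat pools 1, 2 and 3 and at 771, 753 and 793 CPM in control pools 1, 2 and 3. RPL11 overlapped between the groups only through heat pool 3 and control pool 3. Log2 fold changes were 0.06 (SE 0.15) for RPL5 and 0.12 (SE 0.13) for RPL11. The proteins that shape the peptidyl transferase region and the exit tunnel had like values, with RPL3 at 0.11 (SE 0.17), RPL4 at 0.10 (SE 0.17) and RPL39 at 0.08 (SE 0.15). RPL38, which in mouse embryos is needed for the translation of some Hox messenger RNAs, was at 0.06 (SE 0.15).

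In the small subunit, RPS6 is the protein phosphorylated by the S6 kinases downstream of mTOR. Its RNA was at 1052, 1187 and 992 CPM in heat pools 1, 2 and 3 and at 1156, 1079 and 1074 CPM in control pools 1, 2 and 3, a log2 fold change of -0.03 (SE 0.14, 95% interval -0.36 to 0.29). RPSA, which also carries the name laminin receptor, averaged 1879 ± 242 CPM in heat pools and 1705 ± 86.7 CPM in control pools (log2 fold change 0.14, SE 0.16). RPS3, at the channel where messenger RNA enters, averaged 1276 ± 156 CPM in heat pools and 1194 ± 41.6 CPM in control pools. RPS19, whose mutation causes Diamond-Blackfan anaemia in humans, averaged 749 ± 21.8 CPM in heat pools and 715 ± 54.5 CPM in control pools. RPS25, needed in mammalian and yeast cells for initiation at some viral internal entry sites, was at 991, 1214 and 860 CPM in heat pools 1, 2 and 3 and at 977, 875 and 968 CPM in control pools 1, 2 and 3. The heat pools of RPS25 lay on both sides of the control pools. RPS27A, made as a fusion with ubiquitin, averaged 1220 ± 105 CPM in heat pools and 1154 ± 88.3 CPM in control pools.

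FAU and RACK1 also encode ribosomal proteins but fall outside the naming rule. FAU encodes a ubiquitin-like protein fused to RPS30, and RACK1 is the scaffold protein on the head of the small subunit. FAU was at 483, 522 and 574 CPM in heat pools 1, 2 and 3 and at 597, 510 and 540 CPM in control pools 1, 2 and 3. RACK1 was at 1468, 1715 and 1387 CPM in heat pools 1, 2 and 3 and at 1526, 1338 and 1495 CPM in control pools 1, 2 and 3. In both genes the groups overlapped. Their log2 fold changes were -0.06 (SE 0.13) for FAU and 0.07 (SE 0.15) for RACK1, both inside the range of the members.

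The second-copy genes could be set beside the genes they resemble. RPL22L1 was at 121, 124 and 108 CPM in heat pools 1, 2 and 3 and at 134, 101 and 123 CPM in control pools 1, 2 and 3, and RPL22 averaged 345 ± 21.6 CPM in heat pools and 339 ± 28.9 CPM in control pools. RPS27L, a target of p53 in human cells, was at 241, 222 and 319 CPM in heat pools 1, 2 and 3 and at 288, 238 and 322 CPM in control pools 1, 2 and 3. RPS27 averaged 385 ± 28.5 CPM in heat pools and 390 ± 32.1 CPM in control pools. Log2 fold changes were -0.02 (SE 0.13) for RPL22L1, 0.02 (SE 0.12) for RPL22, -0.12 (SE 0.18) for RPS27L and -0.02 (SE 0.13) for RPS27, and -0.01 (SE 0.17) for RPL7L1. RPL26L1 was the only RPL26 symbol among the members and had a log2 fold change of 0.12 (SE 0.16). Where copies are alike in sequence, reads may have been divided between them by the counting. This was not tested, so the values of these pairs are uncertain.

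The values of the members moved together from pool to pool. Relative to each gene's control mean, the median member was at 0.03, 0.21 and -0.05 on the log2 CPM scale in heat pools 1, 2 and 3, and at 0.09, -0.11 and 0.03 in control pools 1, 2 and 3. Heat pool 2 was highest and control pool 2 lowest, and the other pools lay between them without regard to group. Heat pool 2 held the highest value of all 6 pools for 60 of 72 members, against 24.6% of all tested genes. Control pool 2 held the lowest value for 43 members, against 13.9% of all tested genes, and heat pool 3 for 23 members, against 19.4%. Members above their own control mean numbered 47, 69 and 16 in heat pools 1, 2 and 3, against 70, 2 and 47 in control pools 1, 2 and 3.

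As a description over the 6 pools, which share their library and scaling across genes, the median Pearson r between pairs of members was 0.81, and the first principal component held 73.7% of the members' variance. No such values are given here for other abundant genes, so they do not show a trait particular to members. Only 6 members had an r under 0.5 with the median member. They were RPS27L (-0.29), RPL7L1 (0.10), RPL19 (0.35), RPL24 (0.37), RPL34 (0.45) and RPS3A (0.45). RPS27L and RPL7L1, both second-copy genes, were thus the ones whose pools least followed the other members. RPL22L1, the other tested second-copy gene, had an r of 0.73 with the median member, so this did not hold for every second copy. RPL7L1 was at 142, 177 and 210 CPM in heat pools 1, 2 and 3 and at 208, 164 and 161 CPM in control pools 1, 2 and 3.

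**Figure D4:**
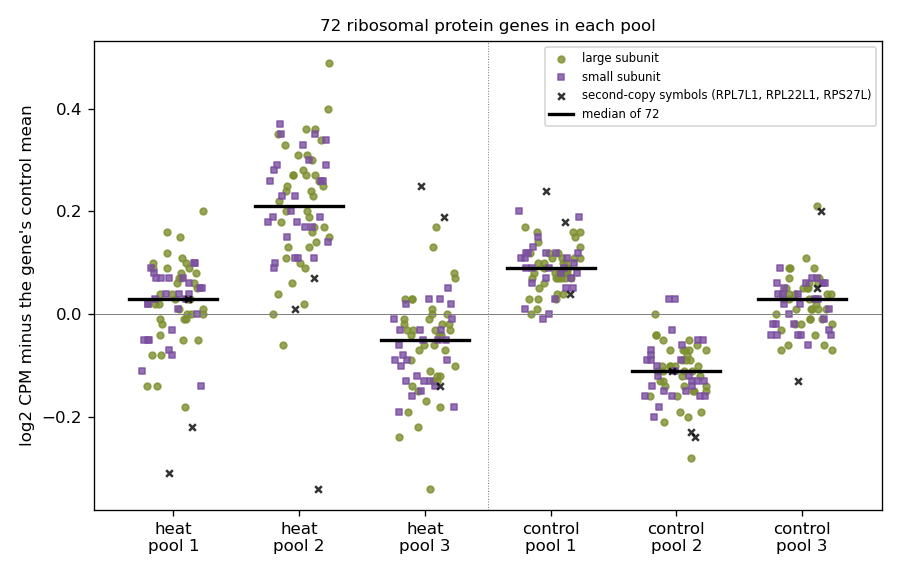
Log2 CPM minus the gene's control mean for 72 ribosomal protein genes in each heat pool and each control pool; points are genes by subunit, crosses are second-copy genes and black lines are medians. The median is highest in heat pool 2 (0.21) and lowest in control pool 2 (-0.11). Among the crosses, RPL7L1 is at -0.31 in heat pool 1 and RPS27L at -0.34 in heat pool 2, against medians of 0.03 and 0.21 there. The other cross, RPL22L1, is at 0.03 in heat pool 1 and 0.07 in heat pool 2.

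The spread of a member between pools was modest. The median SD of log2 CPM over the heat pools was 0.16 for members and 0.23 for all tested genes, and over the control pools it was 0.11 for members and 0.16 for all tested genes. Among the 3545 tested genes at or above the level of the lowest tested member (63.6 CPM), the median SD was 0.19 in heat pools and 0.11 in control pools. The members' spread was thus close to that of other abundant genes.

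The median over members depended on which pools entered. With heat pools 1, 2 and 3 left out in turn it was 0.09, -0.01 and 0.11. With control pools 1, 2 and 3 left out in turn it was 0.12, 0.01 and 0.08. Of the 12 enterocyte markers, 9 were below their control mean in heat pool 2 and 3 (SI, EPCAM and ANPEP) were above it. The counts were the same, 9 below and 3 above, in heat pool 1 and in control pool 2. In heat pool 3, 9 were above and 3 below, in control pool 1 all 12 were above, and in control pool 3 5 were above and 7 below. The median deviations of the 12 markers were -0.10, -0.48 and 0.26 in heat pools 1, 2 and 3, against 0.13, -0.09 and -0.03 in control pools 1, 2 and 3. The summed level of the 12 enterocyte markers was 16710 CPM in heat pool 2, within a range of 16710 to 30440 CPM over the heat pools and 21218 to 30460 CPM over the control pools. Smooth muscle markers had median deviations of -0.46, 0.60 and 0.76 in heat pools 1, 2 and 3, against -0.05, -0.30 and 0.37 in control pools 1, 2 and 3, and the 9 markers summed to 783 to 1664 CPM in heat pools and 787 to 1336 CPM in control pools. Fibroblast markers had median deviations of -0.09, 0.52 and -0.43 in heat pools 1, 2 and 3, against -0.29, 0.10 and 0.19 in control pools 1, 2 and 3, and the 9 markers summed to 1510 to 3010 CPM in heat pools and 1637 to 2360 CPM in control pools. Lymphocyte markers had median deviations of 0.44, -0.08 and 0.03 in heat pools 1, 2 and 3, against 0.26, 0.02 and -0.27 in control pools 1, 2 and 3, and the 14 markers summed to 7962 to 9246 CPM in heat pools and 6538 to 9858 CPM in control pools. In the enterocyte, smooth muscle, fibroblast and lymphocyte lists, 0 markers were at 0 in every pool. The 6 measured erythroid markers, of which 4 were tested, summed to 29.6 to 33.3 CPM in heat pools and 36.4 to 45.7 CPM in control pools. The part of the cell makeup in the pool differences of the ribosomal protein genes was not tested.

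Gene length moved with the libraries as well. Across all tested genes, Spearman's correlation of a library's deviation from the control mean with implied gene length was 0.28, 0.25 and -0.15 in heat pools 1, 2 and 3, against -0.27, -0.05 and -0.13 in control pools 1, 2 and 3. Because members are short, a trend on length touches their values more than those of most genes. After a smooth trend on length was removed from each library, the median log2 fold change of members was 0.21, against 0.01 for all tested genes, and all 72 fits were positive. Even then 0 members had an unadjusted p under 0.05, and the smallest was 0.0526 (edgeR). The members' median thus moved from 0.06 to 0.21 with this choice, and the count of called members stayed at 0. Members whose pools did not overlap went from 0 to 11 (15.3%), where 24.9% of all tested genes did not overlap with the trend removed.

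To see whether single members changed their proportion within the ribosomal set, libraries were also scaled on the median member, a choice made after the data had been seen. No member passed (edgeR smallest p 0.211, adjusted p 0.61). The pools separated fully for 10 members, where 19.7% of all tested genes did so under the same scaling. Relative to the other members, RPL23, RPL13, RPL19, RPS27 and RPS6 were among those lower in every heat pool than in any control pool, and RPL29, RPL7, RPL27A and RPL21 were higher. RPL23 lay at -0.17, -0.22 and -0.18 log2 units from its control mean in heat pools 1, 2 and 3 and at 0.08, -0.05 and -0.03 in control pools 1, 2 and 3 on this scale. RPL7 lay at 0.18, 0.28 and 0.13 in heat pools 1, 2 and 3 and at 0.05, 0.05 and -0.10 in control pools 1, 2 and 3. In other members the gap was narrow. RPL13 was at -0.02 in heat pool 2 against -0.01 in control pool 2, and RPL27A at 0.05 in heat pools 1 and 3 against 0.04 in control pool 3. The share of 10 in 72 was below that of all genes. Scaling on the members takes out their common movement by construction, however. The share of members and that of all genes are thus not alike here.

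The genes that build ribosomes were set beside those of the ribosome itself, without a test of the difference between the lists. Of 88 tested assembly factors, which process ribosomal RNA and fit proteins onto it, 65 had a negative and 23 a positive fit, with a median log2 fold change of -0.17. At an unadjusted p under 0.05, 22 (25.0%) were lower in heat pools and 2 were higher, where 9.02% of all tested genes were lower and 8.87% higher. In 31 of them all heat pools lay below all control pools, where 12.9% of tested genes did, and in 3 all lay above, where 11.6% did. None passed in edgeR after adjustment over all genes. DESeq2 called 3 of the 88 lower (RRP9, NOC2L and DDX27) and 2 higher (MDN1 and XPO1), where it called 2.24% of all tested genes lower and 2.7% higher. Without heat pool 2 the count lower at an unadjusted p under 0.05 was 14 (15.9%, against 6.63% of all tested genes), and without heat pool 3 it was 22 (25.0%, against 11.9%). It was lowest without control pool 1, at 12 (13.6%, against 6.52%), and it was 17, 15 and 22 without heat pool 1, control pool 2 and control pool 3. The share of all tested genes that was lower at this p was 8.35%, 6.63% and 11.9% with heat pools 1, 2 and 3 left out in turn and 6.52%, 6.79% and 6.41% with control pools 1, 2 and 3 left out in turn. The share higher was 9.2%, 6.23% and 11.6% with heat pools 1, 2 and 3 left out in turn and 5.77%, 6.74% and 6.29% with control pools 1, 2 and 3 left out in turn.

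RRP9, a protein of the U3 particle that cuts the precursor of small subunit RNA, was at 27.2, 16.2 and 23.4 CPM in heat pools 1, 2 and 3 and at 44.8, 43.1 and 39.9 CPM in control pools 1, 2 and 3. Every heat pool was below every control pool, with a log2 fold change of -0.94 (SE 0.19, edgeR adjusted p 0.0897, DESeq2 adjusted p 0.00124). NOC2L was at 45.8, 44.3 and 46.7 CPM in heat pools 1, 2 and 3 and at 63.5, 63.3 and 56.9 CPM in control pools 1, 2 and 3 (log2 fold change -0.42, SE 0.10). DDX27, a helicase of large subunit assembly, had a log2 fold change of -0.45 (SE 0.11). MDN1, the giant ATPase that strips factors from the precursor of the large subunit, was at 109, 144 and 73.2 CPM in heat pools 1, 2 and 3 and at 62.8, 76.9 and 55.1 CPM in control pools 1, 2 and 3. Heat pool 3 overlapped with the control pools. XPO1, which exports both subunits among many other cargoes, was higher in every heat pool, with a log2 fold change of 0.57 (SE 0.16). The abundant nucleolar proteins NPM1 and NCL were at -0.08 (SE 0.16) and -0.09 (SE 0.14).

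Genes of RNA polymerase I, which transcribes ribosomal RNA, were mixed. Of 11 tested, 7 had a negative and 4 a positive fit (median -0.15), and 1 in each direction (9.09%) had an unadjusted p under 0.05, close to the share of all tested genes (9.02% lower and 8.87% higher). The 1 lower was lost without heat pool 2, heat pool 3 or control pool 1, and the 1 higher was lost without control pool 3. They were the subunit POLR1C, with a log2 fold change of -0.45 (SE 0.16, edgeR adjusted p 0.204), and the initiation factor RRN3, with 0.41 (SE 0.14, edgeR adjusted p 0.18). Of 10 tested chaperones and partners of ribosomal proteins, 7 had a positive and 3 a negative fit (median 0.07), with 1 of the 10 at an unadjusted p under 0.05 in each direction, again close to the share of all tested genes. They were BTF3, part of the nascent polypeptide complex, at 0.36 (SE 0.13) and AAMP at -0.29 (SE 0.12). Without heat pool 2 or control pool 2 the counts were 0 and 0, without heat pool 3 they were 2 higher and 0 lower, and without control pool 3 they were 1 higher and 0 lower.

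Mitochondrial ribosomal proteins, which form the separate ribosome of that organelle, gave a lower median than the cytosolic set. Of 74 tested, 62 had a negative and 12 a positive fit, with a median log2 fold change of -0.14, and 12 (16.2%) were lower and 4 (5.41%) higher with an unadjusted p under 0.05, where 9.02% and 8.87% of all tested genes were. edgeR called 0 of them after adjustment. DESeq2 called MRPL4 and MRPS12 of the 74, both lower, where it called 2.24% of all tested genes lower. MRPL4 was at 2.46, 1.75 and 2.97 CPM in heat pools 1, 2 and 3 and at 6.45, 5.73 and 5.34 CPM in control pools 1, 2 and 3 (log2 fold change -1.28, SE 0.26, DESeq2 adjusted p 0.00519). After removal of the length trend the list median was -0.04, with 5 lower (6.76%, against 8.28% of all tested genes) and 4 higher. With the trend kept, the 12 lower became 8, 6 and 23 with heat pools 1, 2 and 3 left out in turn (10.8%, 8.11% and 31.1%) and 6, 10 and 4 with control pools 1, 2 and 3 left out in turn (8.11%, 13.5% and 5.41%). The share stood below that of all tested genes without control pool 3 (6.41%) and above it in the other leave-outs. The 4 higher became 5, 2 and 5 with heat pools 1, 2 and 3 left out in turn and 2 with any 1 control pool left out. The difference between the mitochondrial and the cytosolic sets was not tested.

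Translation factors were read in the same way. Of 8 tested genes on the elongation list, which is wider than the factors themselves, 7 had a positive fit, with a median log2 fold change of 0.28. At an unadjusted p under 0.05 there were 2, both higher in heat pools (25.0%, against 8.87% of all tested genes). The 2 became 1 without heat pool 2, control pool 2 or control pool 3, and 4 without heat pool 3. EEF1B2, which reloads the elongation factor EEF1A1 with GTP, was at 1078, 1246 and 982 CPM in heat pools 1, 2 and 3 and at 878, 820 and 786 CPM in control pools 1, 2 and 3. All heat pools lay above all control pools, with a log2 fold change of 0.41 (SE 0.15, edgeR adjusted p 0.205, DESeq2 adjusted p 0.0433). EEF1E1, the other of the 2, is a scaffold of the aminoacyl-tRNA synthetase complex and not itself an elongation factor. Its log2 fold change was 0.49 (SE 0.12, DESeq2 adjusted p 0.0327). EEF1A1 itself was at 7518, 8845 and 6979 CPM in heat pools 1, 2 and 3 and at 7109, 6426 and 5831 CPM in control pools 1, 2 and 3, where heat pool 3 lay below control pool 1. EEF2, which moves the ribosome along the messenger RNA, had a log2 fold change of 0.31 (SE 0.15).

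Among 32 tested initiation factors, 19 had a positive and 13 a negative fit (median 0.03), and 8 (25.0%) were higher and 4 (12.5%) lower with an unadjusted p under 0.05, where 8.87% and 9.02% of all tested genes were. The 8 higher became 8, 3 and 9 with heat pools 1, 2 and 3 left out in turn and 4, 5 and 2 with control pools 1, 2 and 3 left out in turn. The 4 lower became 2, 2 and 4 with heat pools 1, 2 and 3 left out in turn and 3, 2 and 3 with control pools 1, 2 and 3 left out in turn. DESeq2 called 3 of the 32, all higher, where it called 2.7% of all tested genes higher, while edgeR called 0 after adjustment. PABPC1, the poly(A) binding protein, was at 663, 806 and 626 CPM in heat pools 1, 2 and 3 and at 463, 552 and 510 CPM in control pools 1, 2 and 3 (log2 fold change 0.46, SE 0.15, DESeq2 adjusted p 0.0411). EIF3E, a subunit of the factor that brings the small subunit to the messenger RNA, had a log2 fold change of 0.42 (SE 0.13), and EIF2S3, part of the factor that carries the initiator tRNA, had 0.38 (SE 0.12). On the lower side, EIF4G1, the scaffold of the cap complex, was at -0.40 (SE 0.15). EIF2B3 and EIF2B4, subunits of the exchange factor that recharges EIF2, were at -0.41 (SE 0.12) and -0.33 (SE 0.10).

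A list of 21 other tested messenger RNAs that carry a TOP tract in mammals shares several of these factors. It had 16 positive and 5 negative fits and a median of 0.21, with 6 (28.6%) higher and 0 lower with an unadjusted p under 0.05, where 8.87% and 9.02% of all tested genes were. DESeq2 called 3 of them higher, PABPC1, EEF1B2 and EIF3E, where it called 2.7% of all tested genes higher. edgeR called 0 after adjustment. The 6 higher, which include the 3 called by DESeq2, were all also on the initiation, elongation or chaperone lists above. They are thus the same genes counted again. The count of 6 was 6, 2 and 8 with heat pools 1, 2 and 3 left out in turn and 4, 2 and 3 with control pools 1, 2 and 3 left out in turn. TPT1, a growth-related TOP messenger RNA, was at 1364, 1540 and 1267 CPM in heat pools 1, 2 and 3 and at 1371, 1056 and 1288 CPM in control pools 1, 2 and 3 (log2 fold change 0.17, SE 0.16). The list by pool had medians of 0.19, 0.35 and 0.07 in heat pools 1, 2 and 3, against 0.08, -0.04 and -0.02 in control pools 1, 2 and 3. With the length trend removed, the median log2 fold change was 0.3 for this list and 0.21 for the ribosomal proteins. Whether the list differed from the ribosomal proteins was not tested.

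**Figure D5:**
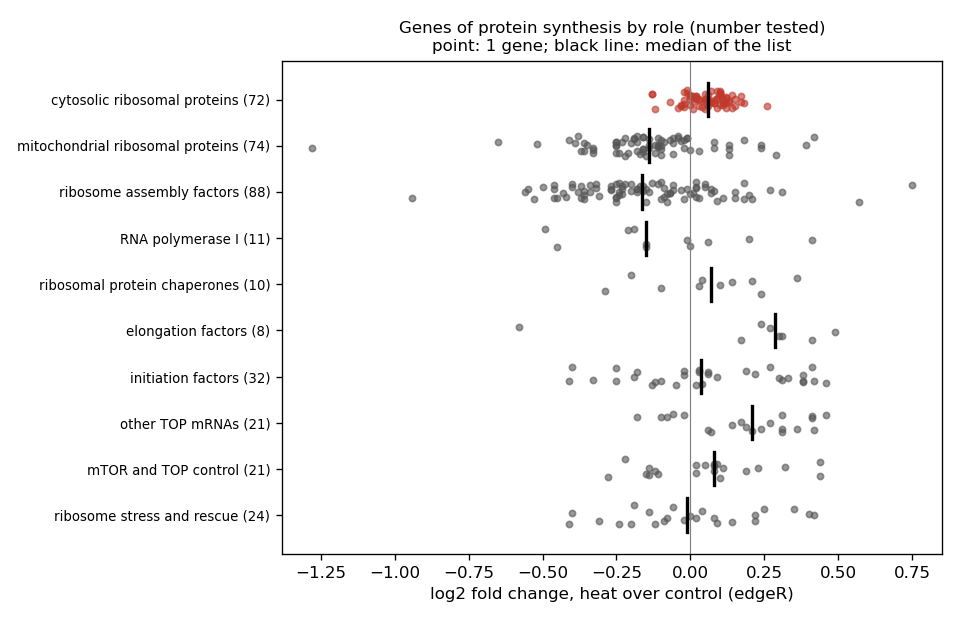
Log2 fold change of heat over control for the genes of 10 lists of protein synthesis, 1 point a gene, with the median of each list as a black line and the number tested in brackets. Cytosolic ribosomal proteins (red) lie within -0.13 to 0.26, while assembly factors spread from -0.94 to 0.75 around a median of -0.17.

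Regulators of TOP messenger RNAs were also measured. Of 21 tested genes of mTOR signalling and TOP control, 14 had a positive and 7 a negative fit (median 0.08), and log2 fold changes ran from -0.28 to 0.44. At an unadjusted p under 0.05 there was 1 (4.76%) in each direction, TSC1 (0.32, SE 0.13) and MLST8 (-0.28, SE 0.11), below the share of all tested genes. Without heat pool 2 or control pool 1 the counts were 0 and 0, without control pool 2 or 3 they were 1 higher and 0 lower, and without heat pool 3 they were 2 and 2. In 3 of the 21 genes all heat pools lay below and in 3 all lay above the control pools, where 12.9% and 11.6% of all tested genes did. MTOR was at 53.5, 48.5 and 56.2 CPM in heat pools 1, 2 and 3 and at 60.7, 62.3 and 61.0 CPM in control pools 1, 2 and 3, below in every heat pool (log2 fold change -0.22, SE 0.10, edgeR adjusted p 0.314). LARP1 was at 0.02 (SE 0.11), and MYC, a transcription factor that drives ribosome production, was at -0.14 (SE 0.12). Of 24 tested genes of ribosome stress and rescue, 11 had a positive and 13 a negative fit (median -0.01), with 2 (8.33%) higher and 3 (12.5%) lower with an unadjusted p under 0.05, where 8.87% and 9.02% of all tested genes were. Without heat pool 2 or control pool 2 both counts were 0, and without heat pool 3 they were 5 higher and 4 lower. Without heat pool 1 they were 3 higher and 1 lower, without control pool 1 they were 1 and 2, and without control pool 3 they were 0 and 1. PELO, which splits stalled ribosomes, was at 0.35 (SE 0.12) and RNF14, a ubiquitin ligase for blocked ribosomes, at 0.42 (SE 0.17). G3BP2, a stress granule protein, was at -0.41 (SE 0.14). In edgeR 0 genes of either list passed after adjustment over all genes, and DESeq2 called 0 as well.

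Markers of crypt and cycling cells, like the assembly factors, mostly had negative fits. Of 14 tested markers, 11 had a negative and 3 a positive fit. At an unadjusted p under 0.05, 8 (57.1%) were lower and 0 were higher, where 9.02% and 8.87% of all tested genes were. The count lower was 7 or 8 with any 1 pool left out, and 1 was higher without heat pool 3. The list had a median log2 fold change of -0.44, with 0 called by edgeR after adjustment. DESeq2 called 6 lower, where it called 2.24% of all tested genes lower. Their median deviations were -0.49, -0.47 and -0.49 in heat pools 1, 2 and 3, against 0.15, -0.07 and -0.08 in control pools 1, 2 and 3. Their summed level was 787, 1098 and 873 CPM in heat pools 1, 2 and 3, against 1065, 1121 and 1074 CPM in control pools 1, 2 and 3, and 0 of them were at 0 in every pool. The 8 were the cyclins CCNA2 and CCNB2, the replication factors PCNA, MCM2, MCM3 and MCM5, and RRM1 and RRM2 of ribonucleotide reductase. The other tested markers did not reach this p in either direction. Among them, the stem cell markers LGR5, OLFM4 and SMOC2 had log2 fold changes of 0.38, 0.11 and -0.04. LGR5 and OLFM4 were thus 2 of the 3 with a positive fit, and the other is not reported by name here. Markers of dividing cells were also among those that did not reach this p. The part of cycling cells in the values of the assembly factors was not tested.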

How the data were processed

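Messenger RNA of 3 heat pools and 3 control pools was sequenced, 1 library each, and groups were taken from sample titles. The authors deposited 1 table, which per the file headers holds an estimated count and an FPKM value for each gene and library; 13.05% to 13.65% of the counts of a library are not whole numbers within 0.001. The build GRCg6a and the programs HISAT2 2.0.1, cutadapt 1.9.1, DESeq2 and HTSeq 0.6.1 are named without order, per the submitters' processing notes. The tool behind the fractional counts and the strand setting are not given in the sources used here. Library preparation enriched poly(A) RNA or depleted ribosomal RNA, per the labels' protocols.

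Counts were rounded and tested with edgeR 4.0.16 in R 4.3.3 (filterByExpr, minimum count 10 and minimum total 15, TMM, quasi-likelihood test, two-sided, Benjamini-Hochberg adjustment over all 13060 genes tested). The SE was obtained as the size of the log2 fold change over the root of the F statistic, and the common biological coefficient of variation was 0.196. DESeq2 1.42.0 and limma 3.58.1 (limma-trend on log2(FPKM + 1), and with 0.1 in place of 1) were run on the same genes as alternatives. Further alternatives were other scalings, no filter, removal of a length trend (lowess, span 0.3), a replicate block, leaving out each pool, scaling on the members, leaving out second-copy genes and shares of FPKM; the last 3 were chosen after the data had been seen. Python 3.11.15, pandas 2.3.3 and matplotlib 3.10.9 prepared tables and plots, and the tests were tested on simulated data.

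Members and lists were chosen with earlier results of these data known, so no list was tested as a set and no p was adjusted over a list. Named genes were members with the highest and lowest fold changes, smallest p and highest FPKM, up to 3 genes a list and direction with the smallest p, and a set of genes known for their roles. RPL13, RPL24, RPL27A and RPS3A, and LGR5, OLFM4, SMOC2, SI, EPCAM and ANPEP, were named after their values were seen. A few genes under this rule are not reported here. Gene names came from the table; 72 members were found by identifier in a RefSeq gene table of GRCg7b, 3 under another symbol, and no coordinates are given for that reason. Each library was counted as its own replicate because the pools were made from different hens. Within each group, counts of any 2 libraries differed beyond sampling noise (chi-square over its degrees of freedom of 21.3 to 62.7). That alone cannot show that libraries are separate replicates. Total counts per library set the counting error.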

Additional observations from a re-analysis of the deposited data

How the results depend on the processing

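Of the 16 alternatives, each that applied left the members' counts at an adjusted p and at an unadjusted p under 0.05 at 0; the share of counts does not depend on scaling, filter or test. The count of all tested genes past adjusted p 0.05 was 3, and it was 645 by DESeq2, 1 by limma-trend on log2(FPKM + 0.1), 20 with a replicate block, 0 scaled on the ribosomal protein genes and 0 to 7 without 1 pool. The count of members whose pools do not overlap was 0, and it was 1 by DESeq2, with DESeq2 size factors and with TMM without the ribosomal protein genes, 11 with the length trend removed, 10 scaled on the members and 2 to 13 without 1 pool. That is 1.39%, 15.3%, 13.9% and 2.78% to 18.1% of members, where 24.6% to 24.7%, 24.9%, 19.7% and 30.8% to 41.8% of all tested genes did not overlap. With the length trend removed the median log2 fold change was 0.21 for members, 0.20 for large subunit genes and 0.21 for small subunit genes. The difference in share was 1.08 percentage points by summed FPKM. The cause was not tested for any of these.

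Signs of single named genes turned under some alternatives. These genes included RPL23 and RPL19, both at -0.13 and the most negative of the members, and RPL26L1 and RPS25, both at 0.12. With the length trend removed, log2 fold changes were 0.08 for FAU, -0.07 for LARP1, 0.04 for NPM1, 0.01 for RPL19, 0.14 for RPL22L1, 0.03 for RPL23, 0.09 for RPL34, 0.08 for RPL7L1, 0.14 for RPS27, 0.01 for RPS27L and 0.09 for RPS6. By limma-trend with either pseudocount they were -0.03 for LARP1, -0.04 for RPL22, -0.02 for RPL36A, -0.02 for RPL38, -0.05 for RPLP1 and -0.04 for RPLP2. Scaled on the members they were -0.05 for LARP1, -0.04 for RPL22, -0.01 for RPL36A, -0.05 for RPLP1 and -0.03 for RPLP2, and RPL7L1 was at 0.01 by DESeq2 and with its size factors. Without 1 pool the ranges were -0.13 to 0.01 for FAU, -0.01 to 0.08 for LARP1, -0.16 to 0.03 for NPM1, -0.02 to 0.13 for RACK1, -0.04 to 0.08 for RPL22, -0.12 to 0.08 for RPL22L1, -0.01 to 0.23 for RPL26L1, -0.01 to 0.19 for RPL3, -0.14 to 0.04 for RPL34, -0.03 to 0.15 for RPL38, -0.15 to 0.14 for RPL7L1, -0.05 to 0.10 for RPLP1, -0.06 to 0.11 for RPLP2, -0.02 to 0.23 for RPS25, -0.08 to 0.03 for RPS27 and -0.10 to 0.02 for RPS6.

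The groups share replicate numbers, and deviations of same-numbered pools correlated at 0.257, 0.089 and 0.017, with heat pool 2 closer to control pool 3 (0.185), so the numbers were used as names; with the replicate block 0 members were called. Leaving out a pool leaves a group of 2. Among the members, only RPL3L had too few counts to be tested, with 0 to 7 in a pool.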
